A study of Mus musculus with 8 samples.

Results

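The mitochondrial genome of the mouse encodes its own small set of RNAs, and these were followed here through the first weeks of heart maturation with and without the arginine methyltransferase Carm1. All genes of the deposited count table whose name begins with mt- were taken, which gave 37 of 54752 genes: 13 messenger RNAs, 2 ribosomal RNAs and 22 transfer RNAs, all on the mitochondrial chromosome. The 4 groups of 2 libraries were RNA from cardiomyocytes of mice carrying floxed Carm1 alleles (Carm1fl/fl) that had received adeno-associated virus 9 with GFP (control) or with Cre recombinase (KO), each collected at 1w and at 3w. Per the labels, the injection was on postnatal day 1 or 2 at 1w and on postnatal day 3 or 4 at 3w, so that the stated injection day and the age cannot be told apart. In each group replicate 1 carries the earlier day and replicate 2 the later. All animals carried the floxed alleles, none received Cre without them, the hearts were mosaics of infected and uninfected cardiomyocytes, and the cells were isolated on a Langendorff perfusion system with no sorting step described.

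Each strand of mitochondrial DNA is transcribed into long precursors that carry many genes, and most mRNAs and rRNAs are released when the tRNAs between them are cut out. The mRNAs encode core subunits of respiratory complexes I, III, IV and V, whose remaining subunits come from the nucleus, and the rRNAs and tRNAs serve only the translation of these mRNAs. Heart muscle is among the tissues richest in mitochondria, and its respiratory capacity rises after birth. Copies of mitochondrial DNA also sit in the nuclear genome, where some are nearly identical to their source.

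Such copies bear directly on how the mRNAs can be counted, so their sequences come first. On the minus strand of chromosome 1, chr1:24611535-24616197 in GRCm38/mm10, GENCODE M21 annotates 7 pseudogenes whose order and sequence mirror the mitochondrial stretch chrM:6390-11042. Over their aligned lengths Gm28661 is identical to mt-Co2 (681 bases), Gm10925 to mt-Atp6 (678 bases), Gm28437 to mt-Co3 (783 bases), Gm10222 to mt-Nd4l (294 bases) and Gm28439 to the first 876 bases of mt-Nd4. The first 294 of the 297 bases of mt-Nd4l (the gene lies at chrM:9877-10173, plus strand) are shown because no read inside them could be placed by its sequence alone. In the other 2 pairs a single base differs, shown in capitals below: T3C between mt-Nd3 and Gm28438, and A1066T between mt-Co1 and Gm29216, which covers positions 1063 to 1545 of mt-Co1 (positions from 1 at the 5′ end of the mitochondrial gene, its base first).
mt-Nd4l, positions 1 to 294, and Gm10222: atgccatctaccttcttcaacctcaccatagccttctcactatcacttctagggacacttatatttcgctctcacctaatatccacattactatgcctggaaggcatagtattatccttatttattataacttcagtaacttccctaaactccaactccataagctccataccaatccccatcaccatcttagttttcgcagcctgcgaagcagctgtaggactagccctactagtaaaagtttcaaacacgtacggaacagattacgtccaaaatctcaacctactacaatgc
mt-Nd3, positions 1 to 33: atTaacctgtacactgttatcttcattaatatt
Gm28438: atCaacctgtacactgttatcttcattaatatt
mt-Co1, positions 1063 to 1096: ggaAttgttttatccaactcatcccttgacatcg
Gm29216: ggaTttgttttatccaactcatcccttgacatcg

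A further ambiguity lies within the mitochondrial genome, where mt-Atp8 (chrM:7766-7969) and mt-Atp6 (chrM:7927-8607) overlap by 43 bases on the plus strand. The shared stretch is shown with the start codon of mt-Atp6 and the last bases of mt-Atp8 in capitals.
mt-Atp8/mt-Atp6 overlap: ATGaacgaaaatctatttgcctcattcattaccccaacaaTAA

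Among the tRNAs, 7 are printed because their counts moved most or in opposite directions, from GENCODE M21, 5′ to 3′ on their own strand with the anticodon in capitals. mt-Ti (isoleucine, chrM:3706-3774), mt-Tq (glutamine, chrM:3772-3842, minus strand) and mt-Tm (methionine, chrM:3845-3913) lie side by side between mt-Nd1 and mt-Nd2. mt-Tl1 (leucine, chrM:2676-2750) joins mt-Rnr2 to mt-Nd1, and mt-Te (glutamate, chrM:14071-14139, minus strand) adjoins mt-Nd6. mt-Tt (threonine, chrM:15289-15355) and mt-Tp (proline, chrM:15356-15422, minus strand) are neighbours on opposite strands beyond mt-Cytb.
mt-Tl1: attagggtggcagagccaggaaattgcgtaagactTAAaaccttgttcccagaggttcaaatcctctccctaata
mt-Ti: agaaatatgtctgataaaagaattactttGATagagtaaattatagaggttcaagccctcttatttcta
mt-Tq: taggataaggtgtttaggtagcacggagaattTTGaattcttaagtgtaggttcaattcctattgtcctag
mt-Tm: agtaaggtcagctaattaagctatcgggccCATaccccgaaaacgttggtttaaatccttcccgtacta
mt-Te: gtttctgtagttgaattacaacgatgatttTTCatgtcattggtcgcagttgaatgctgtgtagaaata
mt-Tt: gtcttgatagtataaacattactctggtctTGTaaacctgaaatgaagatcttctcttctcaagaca
mt-Tp: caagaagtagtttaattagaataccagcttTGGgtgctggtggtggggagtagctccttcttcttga

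Libraries held 20818285 to 53671626 gene counts. Carm1 itself stood at 40.5 and 39.0 CPM in the 1w controls, 22.2 and 22.4 CPM in the 1w KO libraries, 39.8 and 39.2 CPM in the 3w controls and 17.3 and 17.8 CPM in the 3w KO libraries, where CPM are counts scaled to a common library size with edgeR's TMM factors (from a trimmed mean of log ratios) and kCPM are kilo-CPM. Summed counts of 4 Y-linked genes were 0 to 3 in the 1w controls and the 3w KO libraries, and 4282 to 6765 in the 3w controls and the 1w KO libraries. Every comparison of 2 single groups of different age or KO state below therefore cannot be told apart from this split, whereas the KO difference averaged over both ages and the age difference averaged over control and KO are balanced over it. The 2 libraries of a group carry different stated injection days and, if these hold, come from different animals. The labels do not otherwise identify animals, so p-values here weigh differences against a library-to-library spread that may be technical. Of the 10 cardiomyocyte markers, 8 were measured, and they summed to 39978 to 40944 CPM in the 1w controls, 37495 to 37815 CPM in the 1w KO libraries, 77573 to 81691 CPM in the 3w controls and 62893 to 63717 CPM in the 3w KO libraries. Actc1 and Pln, which heart muscle expresses strongly, were listed at 0 in all 8 libraries, as was Cox4i1, a subunit of complex IV used by most cells, so a 0 in this table does not show that a gene is silent.

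The mitochondrially encoded genes took more of the library at 3w than at 1w and less of it in KO than in control. Their share of all gene counts was 42.9 and 42.1% in the 1w controls, 40.7 and 41.0% in the 1w KO libraries, 46.8 and 47.8% in the 3w controls and 44.8 and 44.9% in the 3w KO libraries. Every 3w library lay above every 1w library, and within each age both KO libraries lay below both control libraries. Averaged over both ages the KO share less the control share was -2.05 percentage points, and averaged over control and KO the 3w share less the 1w share was 4.38 points. In an exact two-sided permutation test within the strata, each of these differences reached p = 0.0556, the smallest that 36 arrangements allow (adjusted p = 0.18 over the 42 differences tested this way on 7 measures). Within a single age the KO difference was -1.64 points at 1w and -2.45 points at 3w, and an exact permutation test of 2 against 2 libraries cannot go below p = 0.333. For the shallowest library the 95% Wilson interval of the share ran from 42.92 to 42.96%, which covers counting error only.

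Almost all of this share was mRNA, which made up 97.6 to 98.6% of the mitochondrial counts of a library. The rRNAs held 0.754 and 0.747% in the 1w controls, 0.517 and 0.511% in the 1w KO libraries, 1.06 and 1.07% in the 3w controls and 0.819 and 0.812% in the 3w KO libraries, as a share of all gene counts, and the groups did not overlap. The tRNAs held 0.0513 to 0.0765% of a library. Of the nuclear counts, the 10 most abundant nuclear genes of each library took 12.3 and 12.4% in the 1w controls, 11.7 and 11.7% in the 1w KO libraries, 17.3 and 17.9% in the 3w controls and 15.8 and 15.8% in the 3w KO libraries. They too took more at 3w than at 1w and less in KO than in control, and their part in the differences below was not tested. In bulk RNA, fewer cardiomyocytes in the preparation and less mitochondrial RNA per cardiomyocyte cannot be told apart.

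**Figure D1:**
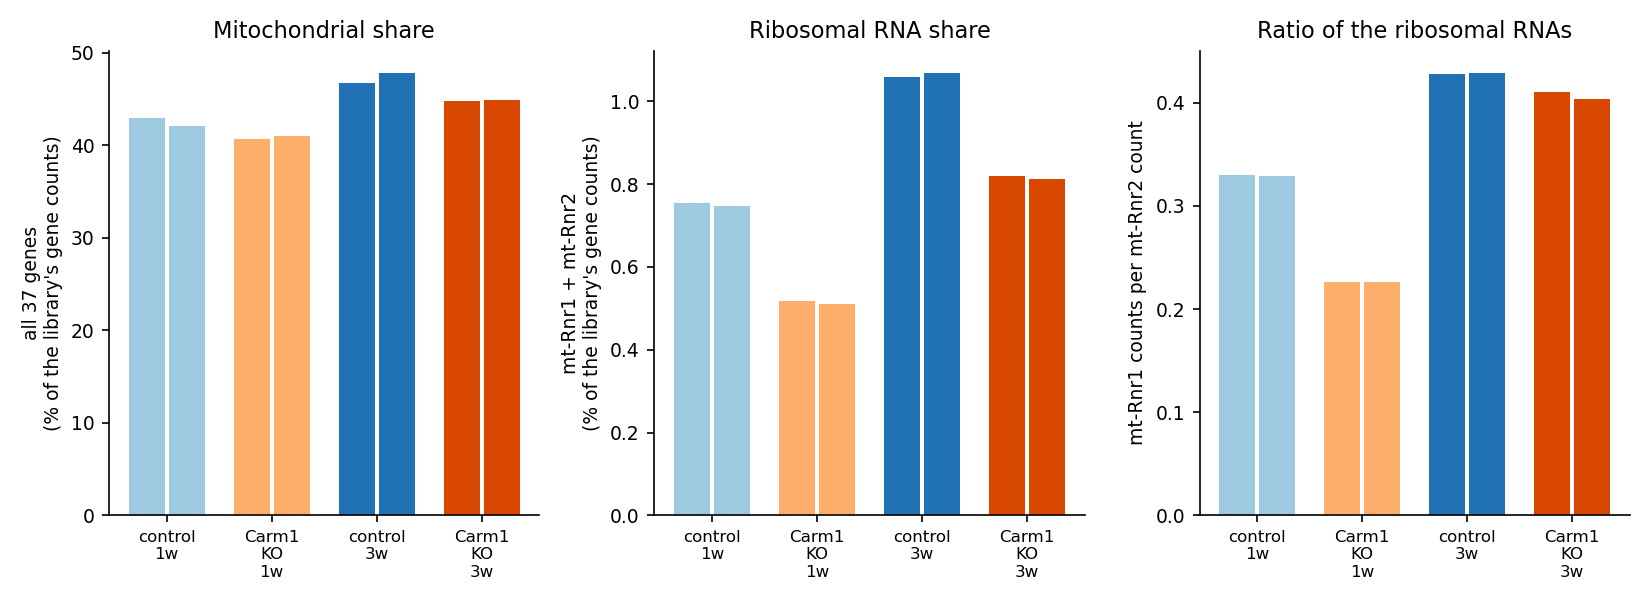
Share of library counts from all 37 mitochondrially encoded genes (left, %), from the 2 rRNAs (middle, %) and the ratio of mt-Rnr1 to mt-Rnr2 counts (right), with 1 bar for each of the 2 libraries of a group. The share of all 37 genes runs from 40.7 to 47.8%, and the rRNA share from 0.511 to 1.07%, lowest in KO at 1w and highest in control at 3w.

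The 13 mRNAs fell into 2 classes by level. Per kilobase of gene, mt-Co1, mt-Cytb, mt-Nd1, mt-Nd2, mt-Nd6, mt-Nd5 and mt-Nd4 averaged 25.1 to 92.8 kCPM over the 8 libraries, in that order from the highest. The 6 genes mt-Co2, mt-Atp8, mt-Atp6, mt-Co3, mt-Nd3 and mt-Nd4l averaged 172 to 743 CPM per kilobase, and together they held 0.218 to 0.465% of the counts of the 13 mRNAs. These 6 lie within the stretch mirrored on chromosome 1. Of the 50-base windows of mt-Co2, mt-Co3, mt-Atp6, mt-Nd4l and mt-Nd3, 98.0 to 100% also occur in a nuclear transcript of GENCODE M21, against 62.2% in mt-Nd4, 51.1% in mt-Co1, 8.19% in mt-Nd2, 7.61% in mt-Nd5 and 0 in mt-Nd1, mt-Nd6, mt-Cytb, mt-Rnr1 and the tRNAs. For mt-Atp8 the share is 0 as well, since no transcript is annotated between Gm28661 and Gm10925. The nuclear sequence there was not used here.

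The chromosome 1 copies held more counts than the mitochondrial genes they mirror. At the median of the 8 libraries Gm28437 had 8.23 counts for each count of mt-Co3, Gm10222 had 7.97 for mt-Nd4l, Gm10925 had 7.44 for mt-Atp6, Gm28661 had 6.37 for mt-Co2 and Gm28438 had 4.30 for mt-Nd3. For Gm29216 against mt-Co1 and Gm28439 against mt-Nd4, where only part of the gene is copied, the ratios were 0.0163 and 0.0438. Together the 7 copies took 0.963 to 1.27% of a library. How reads that fit several places were treated is not given in the sources used here, so the counts of the 6 low mRNAs are uncertain, and those of mt-Co1 and mt-Nd4 may lack reads from their copied parts.

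**Figure D2:**
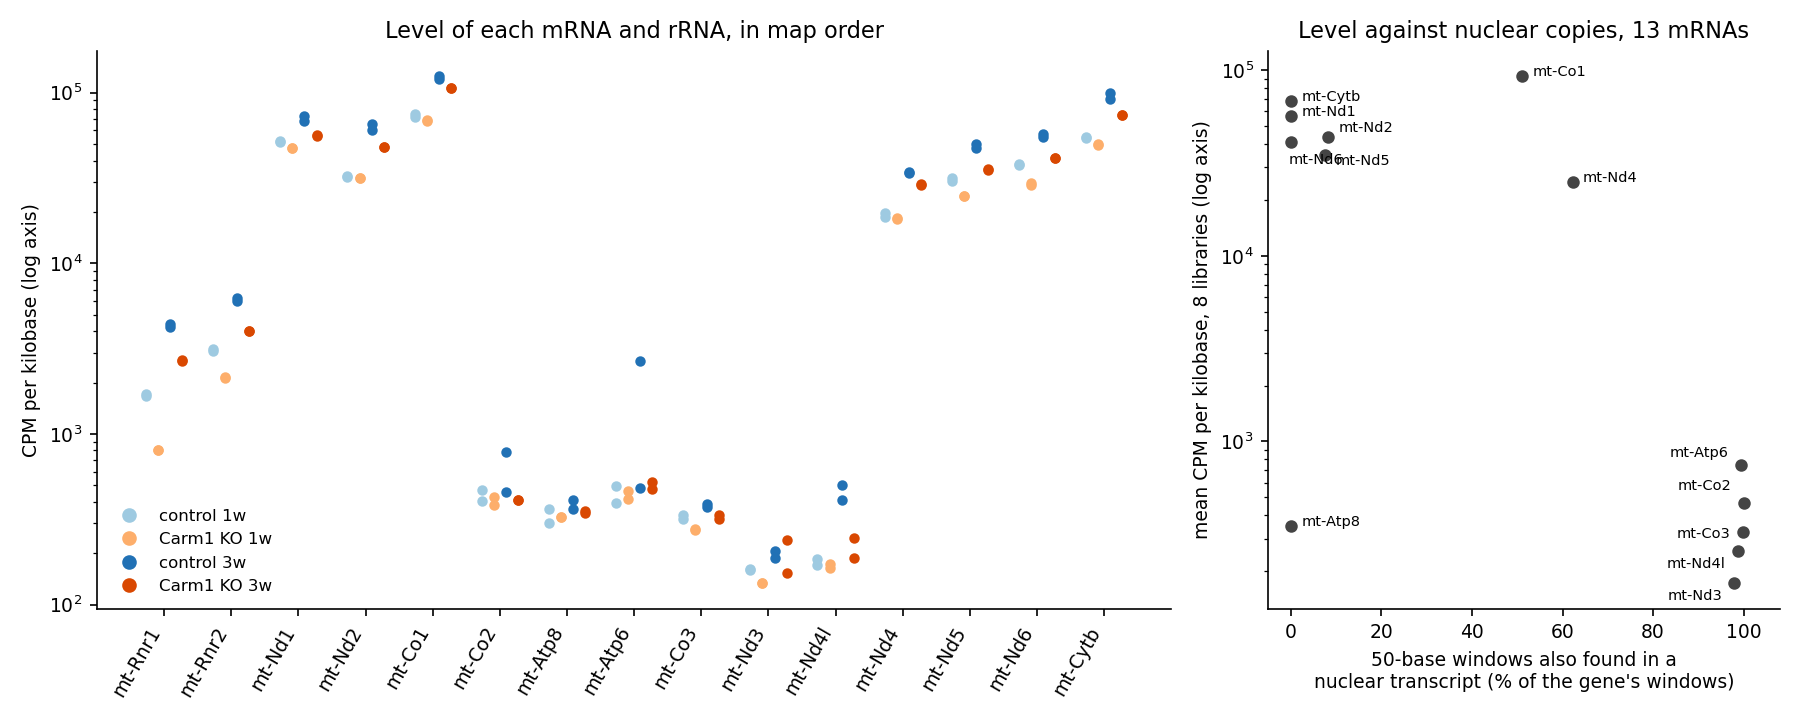
Left: CPM per kilobase (log axis) of the 2 rRNAs and 13 mRNAs in the order of the mitochondrial map, 1 point per library, coloured by group. Right: mean CPM per kilobase over the 8 libraries (log axis) against the share of a gene's 50-base windows found in a nuclear transcript (%), 1 point per mRNA. The 5 mRNAs at 98.0 to 100% and mt-Atp8 lie at 743 CPM per kilobase or less, and the other 7 at 25.1 kCPM or more.

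With loss of Carm1 the mitochondrial mRNAs were lower relative to the typical gene, by little at 1w and by more at 3w. Of the 13, 7 fell at 1w (median log2 fold change -0.11) and 9 at 3w (median -0.37), and averaged over both ages 9 fell (median -0.23). Among the 14665 genes tested, 43.0% were called at 1w (23.0% higher, 20.0% lower), 49.2% at 3w (24.4% higher, 24.8% lower) and 52.8% in the average over both ages (27.5% higher, 25.3% lower), with all-gene medians of 0.02, 0.01 and 0.02. Called here means a Benjamini-Hochberg adjusted p under 0.05 by the quasi-likelihood test of edgeR. With all libraries, none of the 13 was called higher in these comparisons by edgeR with TMM factors or by DESeq2. None was higher at an unadjusted p under 0.05 in that edgeR fit.

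The size of these changes depends on the scale. With total counts in place of TMM factors, so that a change is one of the share of the library, the all-gene median moved to 0.12 at 1w and 0.25 at 3w, and the mRNAs called were 3 lower and 1 higher at 1w and 6 lower and 1 higher at 3w. Of the 14665 genes tested, 6497 were then called in either direction at 1w and 8212 at 3w. TMM factors computed on nuclear genes alone gave 7 lower at 1w and 9 lower at 3w. The fold changes below are on the TMM scale, and a direction that turns with total counts is given in the same sentence.

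Complex I, the entry point of electrons from NADH, takes 7 of its core membrane subunits from mitochondrial DNA. mt-Nd1, next to the rRNAs on the map, stood at 49.6 and 49.4 kCPM in the 1w controls, 45.2 and 45.5 kCPM in the 1w KO libraries, 65.4 and 70.1 kCPM in the 3w controls and 53.5 and 53.7 kCPM in the 3w KO libraries. Both KO libraries lay below both control libraries at each age. Its log2 fold change in KO was -0.13 ± 0.022 (edgeR adjusted p = 5.62e-06) at 1w and -0.34 ± 0.022 (edgeR adjusted p = 2.47e-17) at 3w, and with total counts the former was -0.03 and did not pass the test. mt-Nd2 stood at 33.9 and 33.4 kCPM in the 1w controls, 32.8 and 32.8 kCPM in the 1w KO libraries, 62.7 and 68.4 kCPM in the 3w controls and 49.96 and 50.1 kCPM in the 3w KO libraries. It fell in KO at 3w, with a log2 fold change of -0.39 ± 0.03 (edgeR adjusted p = 3.14e-08), while at 1w its log2 fold change was -0.04 ± 0.03 (edgeR adjusted p = 0.365) on the TMM scale and 0.06 with total counts. Without control replicate 1 or replicate 2 at 3w, mt-Nd2 was called lower at 1w (-0.05, edgeR adjusted p = 0.00284 and 0.00286).

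mt-Nd4, which follows mt-Nd4l on the same precursor, stood at 27.0 and 25.7 kCPM in the 1w controls, 25.1 and 25.3 kCPM in the 1w KO libraries, 46.5 and 47.2 kCPM in the 3w controls and 39.7 and 40.1 kCPM in the 3w KO libraries. Its KO libraries were below the controls at 3w and also at 1w, where the groups lay close. The log2 fold changes were -0.07 ± 0.021 (edgeR adjusted p = 0.0086) at 1w and -0.23 ± 0.021 (edgeR adjusted p = 9.44e-15) at 3w, and turned to 0.03 and 0.02 with total counts. The call at 1w was lost without control replicate 1 (-0.03), KO replicate 1 (-0.06) or KO replicate 2 (-0.07) at 1w. mt-Nd5, the largest of the 13 genes, stood at 58.0 and 55.5 kCPM in the 1w controls, 44.9 and 45.3 kCPM in the 1w KO libraries, 86.4 and 91.1 kCPM in the 3w controls and 64.4 and 65.0 kCPM in the 3w KO libraries. All KO libraries lay below the controls of their age. Its log2 fold changes were -0.33 ± 0.022 at 1w and -0.46 ± 0.022 at 3w (edgeR adjusted p = 7.04e-16 and 1.42e-20).

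mt-Nd6 is the single mRNA of the minus strand and overlaps the end of mt-Nd5 by 14 bases. It stood at 19.8 and 19.6 kCPM in the 1w controls, 14.98 and 15.3 kCPM in the 1w KO libraries, 28.6 and 29.8 kCPM in the 3w controls and 21.6 and 21.5 kCPM in the 3w KO libraries. KO libraries were below controls at both ages with no overlap, and the log2 fold changes of -0.38 ± 0.021 (edgeR adjusted p = 2.41e-23) at 1w and -0.44 ± 0.021 (edgeR adjusted p = 1.2e-26) at 3w kept their direction with total counts (-0.28 and -0.19). Whether the authors counted by strand is not given in the sources used here, so reads of mt-Nd6 and reads from the opposite strand at the same place cannot be told apart.

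The 2 short complex I genes of the copied stretch had few counts for mitochondrial genes. mt-Nd3 stood at 56.1 and 55.3 CPM in the 1w controls, 46.3 and 46.4 CPM in the 1w KO libraries, 72.0 and 65.7 CPM in the 3w controls and 83.6 and 53.2 CPM in the 3w KO libraries. It did not pass the test at either age, and the KO libraries at 3w lay on both sides of the controls. mt-Nd4l stood at 50.8 and 54.9 CPM in the 1w controls, 48.9 and 51.4 CPM in the 1w KO libraries, 123 and 149.8 CPM in the 3w controls and 73.3 and 56.0 CPM in the 3w KO libraries. At 3w both KO libraries lay below both controls, with a log2 fold change of -1.07 ± 0.17 (edgeR adjusted p = 0.00751), and at 1w it did not pass the test. Its copy Gm10222 changed by -0.40 ± 0.1 (edgeR adjusted p = 0.0334) at 3w. This copy had 5.81 and 5.41 counts for each mt-Nd4l count in the 3w controls and 7.76 and 10.5 in the 3w KO libraries. At 1w the ratio was 7.66 and 8.21 in control and 8.89 and 8.18 in KO. The part of this shift between gene and copy in the change of mt-Nd4l was not tested.

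Cytochrome b, encoded by mt-Cytb, is the mitochondrial subunit of complex III and carries electrons from ubiquinol. It stood at 63.0 and 62.1 kCPM in the 1w controls, 56.4 and 57.1 kCPM in the 1w KO libraries, 105 and 114 kCPM in the 3w controls and 84.8 and 84.3 kCPM in the 3w KO libraries. The KO libraries were lower than the controls at both ages. The log2 fold changes were -0.14 ± 0.032 (edgeR adjusted p = 0.00511) at 1w and -0.37 ± 0.032 (edgeR adjusted p = 2.75e-06) at 3w, and the call at 1w was lost without control replicate 1 (-0.13) or replicate 2 (-0.15) at 1w and with total counts (-0.04).

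Complex IV, cytochrome c oxidase, reduces oxygen in the catalytic core formed by mt-Co1 and mt-Co2, to which mt-Co3 adds a further core subunit. mt-Co1, the most abundant of the 37 genes, stood at 116 and 111 kCPM in the 1w controls, 105 and 106 kCPM in the 1w KO libraries, 187 and 193 kCPM in the 3w controls and 164 and 165 kCPM in the 3w KO libraries. KO lay below control at both ages, and the log2 fold changes of -0.10 ± 0.019 (edgeR adjusted p = 3.35e-05) at 1w and -0.21 ± 0.019 (edgeR adjusted p = 1.01e-13) at 3w turned to 0.00 and 0.04 with total counts. mt-Co3 stood at 262 and 248 CPM in the 1w controls, 214 and 218 CPM in the 1w KO libraries, 292 and 303 CPM in the 3w controls and 250.0 and 263 CPM in the 3w KO libraries. KO was lower without overlap, by log2 fold changes of -0.24 ± 0.034 (edgeR adjusted p = 2.63e-08) at 1w and -0.21 ± 0.034 (edgeR adjusted p = 2.46e-07) at 3w, of which the latter turned to 0.04 with total counts. When the counts of its copy Gm28437 were added, the change at 1w was -0.09 and no longer passed (edgeR adjusted p = 0.366). mt-Co2 stood at 278 and 319 CPM in the 1w controls, 263 and 290.2 CPM in the 1w KO libraries, 311 and 539 CPM in the 3w controls and 281 and 279 CPM in the 3w KO libraries. It did not pass the test in either comparison, and control replicate 2 at 3w lay far above the other 7 libraries.

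The ATP synthase, complex V, takes its proton channel subunit from mt-Atp6 and a short membrane subunit from mt-Atp8. mt-Atp8 stood at 61.5 and 74.4 CPM in the 1w controls, 66.7 and 67.0 CPM in the 1w KO libraries, 83.4 and 74.3 CPM in the 3w controls and 72.2 and 70.6 CPM in the 3w KO libraries. It did not pass the test in KO or with age on the TMM scale, while scaled to the pool of the 13 mRNAs it was lower at 3w than at 1w, by -0.51 in control (edgeR adjusted p = 0.00427) and -0.46 in KO (edgeR adjusted p = 0.008). mt-Atp6 stood at 267 and 339 CPM in the 1w controls, 284 and 317 CPM in the 1w KO libraries, 1834 and 328 CPM in the 3w controls and 357 and 324 CPM in the 3w KO libraries. A single library, control replicate 1 at 3w, held 76958 of its counts, while the other 7 held 6373 to 12657. Its copy Gm10925 had 1.89 counts for each count of mt-Atp6 in that library and 6.37 to 11.6 in the other 7. The log2 fold change of mt-Atp6 in KO at 3w was -1.67 ± 0.85 (edgeR adjusted p = 0.188). It was 0.05 without that library and -2.46 without control replicate 2 at 3w, so a single library decides this value.

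Averaged over both ages, where Y-linked transcripts are balanced, the KO changes of the 7 abundant mRNAs ran from -0.41 ± 0.015 in mt-Nd6 and -0.39 ± 0.015 in mt-Nd5, to -0.15 ± 0.014 in mt-Co1 and -0.15 ± 0.015 in mt-Nd4, which turned to 0.02 and 0.03 with total counts. Between them lay mt-Cytb at -0.26 ± 0.023, mt-Nd1 at -0.23 ± 0.015 and mt-Nd2 at -0.21 ± 0.021. All 7 passed the test on the TMM scale, with edgeR adjusted p from 8.62e-33 in mt-Nd6 to 3.11e-06 in mt-Cytb. Of the 6 mRNAs of the copied stretch, mt-Co3 (-0.23 ± 0.024) and mt-Nd4l (-0.58 ± 0.13) passed. Among the copies themselves 1 of 7 fell in this average (median -0.20). Of all genes tested 25.3% were called lower in it.

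**Figure D3:**
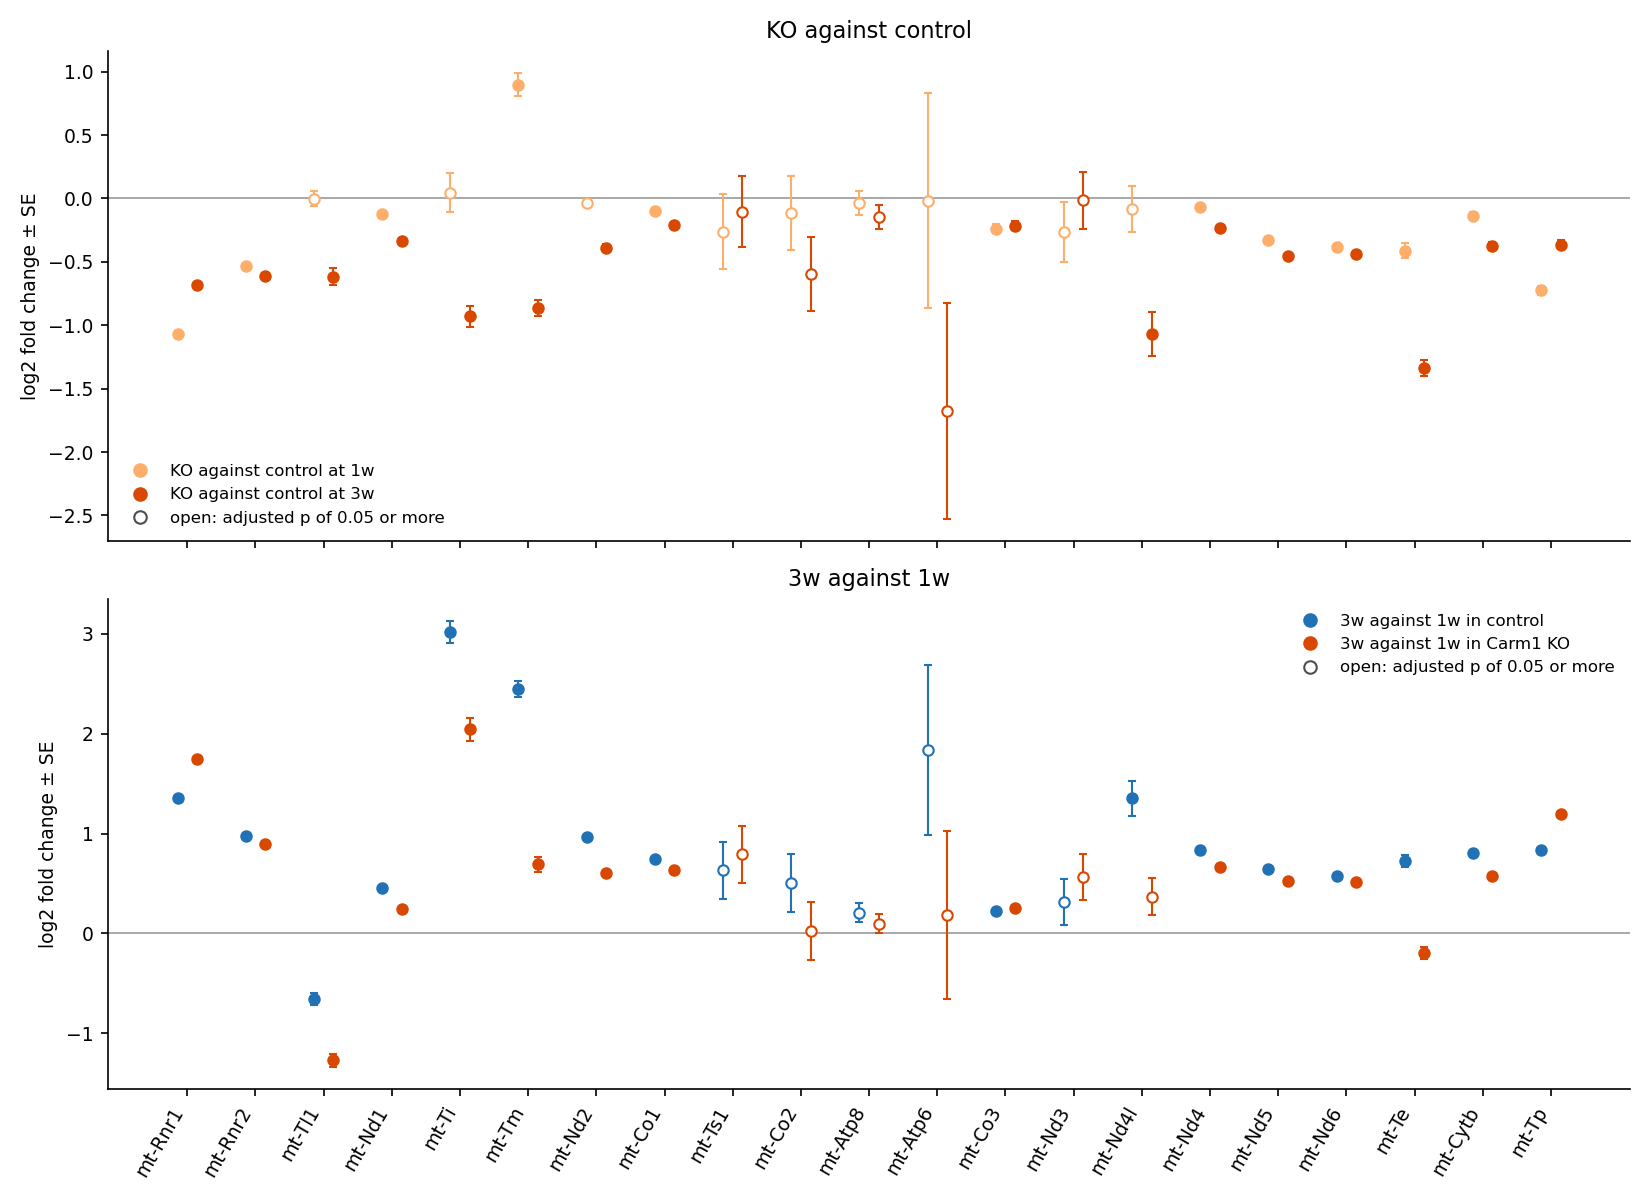
Log2 fold change ± SE (TMM scale) of the 15 mRNAs and rRNAs and of the 6 tRNAs with a mean of at least 10 CPM, in map order: KO against control at each age (top) and 3w against 1w in each KO state (bottom). Filled points have an adjusted p under 0.05 and open points do not. In KO the 2 rRNAs lie at -1.07 to -0.53, and mt-Tm lies at 0.90 at 1w and -0.86 at 3w. With total counts mt-Nd2 in KO at 1w, mt-Co1 and mt-Nd4 in KO at both ages, mt-Co3 in KO at 3w, and mt-Nd1 and mt-Co3 with age turn in sign, as does mt-Nd6 with age in control (-0.01).

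The rRNAs, the RNA cores of the small (mt-Rnr1) and large (mt-Rnr2) subunits of the mitochondrial ribosome, changed more in KO than each of the 7 abundant mRNAs. mt-Rnr1 stood at 1632 and 1602 CPM in the 1w controls, 773 and 765 CPM in the 1w KO libraries, 4059.8 and 4225 CPM in the 3w controls and 2600.2 and 2548 CPM in the 3w KO libraries. mt-Rnr2 stood at 4954 and 4868 CPM in the 1w controls, 3423 and 3382 CPM in the 1w KO libraries, 9479.6 and 9851 CPM in the 3w controls and 6332 and 6320.3 CPM in the 3w KO libraries. For both genes the 4 groups were separate, lowest in KO at 1w and highest in control at 3w. In KO mt-Rnr1 fell with a log2 fold change of -1.07 ± 0.026 (edgeR adjusted p = 1.74e-42) at 1w and -0.69 ± 0.026 (edgeR adjusted p = 1.59e-32) at 3w. mt-Rnr2 fell with -0.53 ± 0.024 (edgeR adjusted p = 2.02e-28) at 1w and -0.61 ± 0.024 (edgeR adjusted p = 9.25e-32) at 3w. From 1w to 3w mt-Rnr1 rose by 1.36 ± 0.026 in control and 1.74 ± 0.026 in KO, and mt-Rnr2 by 0.98 ± 0.024 and 0.89 ± 0.024. With total counts these 8 changes kept their direction. Averaged over both ages, a comparison balanced over Y-linked transcripts, mt-Rnr1 changed by -0.88 ± 0.018 and mt-Rnr2 by -0.57 ± 0.017 in KO (edgeR adjusted p = 2.97e-46 and 3.12e-38).

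The rRNAs differed between the groups relative to the mRNAs as well. Scaled to the summed counts of the 13 mRNAs, mt-Rnr1 still differed in KO by -0.92 at 1w and -0.37 at 3w on the log2 scale (edgeR adjusted p = 3.47e-23 and 4.68e-11), and mt-Rnr2 by -0.38 and -0.29 (edgeR adjusted p = 1.72e-12 and 9.38e-10). The number of mt-Rnr1 counts per mt-Rnr2 count was 0.3295 and 0.329 in the 1w controls, 0.226 and 0.226 in the 1w KO libraries, 0.428 and 0.429 in the 3w controls and 0.411 and 0.403 in the 3w KO libraries. Libraries of a group differed by at most 0.0075 in this ratio, and the groups did not overlap. Averaged over both ages its KO value less its control value was -0.0624, and averaged over control and KO its 3w value less its 1w value was 0.1400, each with p = 0.0556 in the exact two-sided permutation test, the smallest it allows (adjusted p = 0.18 over the same 42). The library protocol was one for mRNA, so these are counts of rRNA in an mRNA library, and the rRNA of intact ribosomes was not measured separately.

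**Figure D4:**
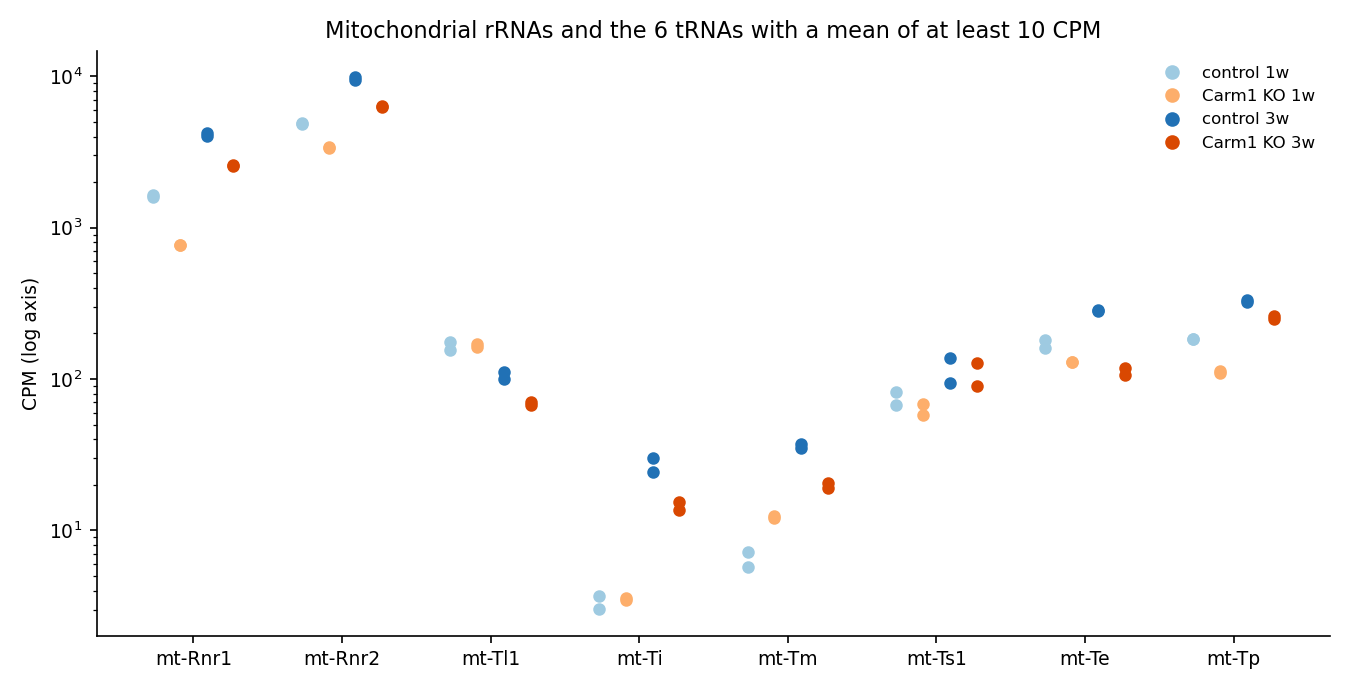
CPM (log axis) of the 2 rRNAs and the 6 tRNAs with a mean of at least 10 CPM, 1 point per library, coloured by group. mt-Rnr1, mt-Rnr2, mt-Ti and mt-Tm are highest in control at 3w, whereas mt-Tl1 is lower at 3w than at 1w in both KO states.

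The tRNAs had low counts, and of 22 only 17 passed the filter on low counts and 6 reached a mean of 10 CPM. At 1w 4 of the 17 tested fell in KO and mt-Tm rose, and at 3w 10 of the 17 fell (median log2 fold change -0.26 and -0.79). Against these counts stand the shares of 20.0% called lower at 1w and 24.8% at 3w among all genes tested. With total counts 4 fell at 1w and 9 at 3w, beside 6497 and 8212 of the 14665 genes tested called in either direction. Averaged over both ages 10 of 17 fell (median -0.45), beside 25.3% called lower among all genes tested. A tRNA of about the length printed above is short for an RNA sequencing library, and how much of these counts came from mature tRNA and how much from precursors was not tested. As for mt-Nd6, reads of tRNAs on the minus strand and reads from the opposite strand cannot be told apart. Among those named, mt-Tq, mt-Ts1, mt-Te and mt-Tp are on the minus strand.

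mt-Tm, the tRNA of the start codon and of internal methionines, stood at 5.75 and 7.21 CPM in the 1w controls, 12.5 and 12.1 CPM in the 1w KO libraries, 37.3 and 34.9 CPM in the 3w controls and 20.6 and 19.2 CPM in the 3w KO libraries. Its KO libraries lay above the controls at 1w and below them at 3w. The log2 fold change in KO was 0.90 ± 0.092 (edgeR adjusted p = 1.81e-12) at 1w and -0.86 ± 0.066 (edgeR adjusted p = 8.93e-18) at 3w. Its neighbour mt-Ti stood at 3.02 and 3.66 CPM in the 1w controls, 3.46 and 3.57 CPM in the 1w KO libraries, 30.2 and 24.5 CPM in the 3w controls and 15.3 and 13.7 CPM in the 3w KO libraries. At 1w the KO and control libraries overlapped, and at 3w both KO libraries were lower, with a log2 fold change of -0.93 ± 0.084 (edgeR adjusted p = 5.07e-12). mt-Te, next to mt-Nd6 on the minus strand, stood at 161 and 181 CPM in the 1w controls, 129 and 129.6 CPM in the 1w KO libraries, 283 and 285 CPM in the 3w controls and 119 and 106 CPM in the 3w KO libraries. KO was lower at both ages, with -0.41 ± 0.059 (edgeR adjusted p = 0.000227) at 1w and -1.34 ± 0.06 (edgeR adjusted p = 9.32e-09) at 3w.

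mt-Tp, the last gene of the map, stood at 184 and 185 CPM in the 1w controls, 113 and 110.4 CPM in the 1w KO libraries, 332 and 325 CPM in the 3w controls and 260.0 and 250.3 CPM in the 3w KO libraries. KO lay below control at both ages, more so at 1w (-0.72 ± 0.034, edgeR adjusted p = 2.43e-27) than at 3w (-0.36 ± 0.033, edgeR adjusted p = 5.59e-15), as for mt-Rnr1. mt-Tl1 stood at 156 and 176 CPM in the 1w controls, 162 and 170.1 CPM in the 1w KO libraries, 111 and 99.6 CPM in the 3w controls and 70.2 and 67.5 CPM in the 3w KO libraries. Its libraries overlapped at 1w and were lower in KO at 3w (-0.62 ± 0.067, edgeR adjusted p = 2.12e-05). mt-Ts1, a serine tRNA opposite the end of mt-Co1, stood at 67.3 and 82.3 CPM in the 1w controls, 58.0 and 67.9 CPM in the 1w KO libraries, 137 and 94.5 CPM in the 3w controls and 127 and 90.2 CPM in the 3w KO libraries. The 2 libraries of a group differed by up to 1.45 times, and KO and control did not differ beyond that spread. The other 16 tRNAs averaged 0.0028 to 6.53 CPM. Among them mt-Tc fell in KO at both ages (-0.58 ± 0.1 and -0.79 ± 0.12), mt-Tr passed the test at 1w (-1.02 ± 0.37), and mt-Tq, mt-Tw, mt-Ty and mt-Th passed at 3w (-1.10 ± 0.17, -1.11 ± 0.24, -1.24 ± 0.48 and -1.25 ± 0.4). The 5 that did not pass the filter, mt-Tf, mt-Tv, mt-Td, mt-Tk and mt-Tl2, had at most 10 counts in any library.

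Between 1w and 3w the mitochondrial mRNAs rose relative to the typical gene. In control 9 of 13 rose (median log2 fold change 0.65), in KO 8 of 13 (median 0.51), and averaged over both 9 of 13 (median 0.58). Of all genes tested, 70.8% were called in control and 34.9% as higher, 67.9% in KO and 33.2% as higher, and 76.8% in the average, 37.4% as higher and 39.4% as lower, with all-gene medians of -0.03, -0.02 and -0.03. The median in KO was 0.31 without KO replicate 1 at 3w. With total counts the all-gene median moved to -0.60 in control and -0.45 in KO, and 6 of the 13 were then called higher and 3 lower in each. Of the 14665 genes tested, 11563 were then called in either direction in control and 11010 in KO.

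The rise was uneven along the map. Of the complex I genes, mt-Nd2 rose by 0.96 ± 0.03 on the log2 scale in control and 0.61 ± 0.03 in KO (edgeR adjusted p = 1.2e-13 and 4.98e-11), and mt-Nd4 by 0.83 ± 0.021 and 0.66 ± 0.021. mt-Nd5 changed by 0.65 ± 0.022 and 0.52 ± 0.022, and mt-Nd6 by 0.57 ± 0.022 and 0.51 ± 0.022, where the value of mt-Nd6 in control was -0.01 with total counts. mt-Nd1 had the smallest change of the 7 abundant mRNAs, 0.45 ± 0.022 and 0.24 ± 0.022, and turned to -0.12 and -0.19 with total counts. mt-Nd4l rose in control (1.35 ± 0.17, edgeR adjusted p = 0.00213) and did not pass in KO, and mt-Nd3 passed in neither.

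Of the other complexes, mt-Cytb rose by 0.81 ± 0.033 in control and 0.58 ± 0.032 in KO (edgeR adjusted p = 1.02e-09 and 2.65e-08), and mt-Co1 by 0.75 ± 0.019 and 0.64 ± 0.019 (edgeR adjusted p = 1.91e-39 and 6.66e-36). mt-Co3 rose by 0.22 ± 0.034 and 0.25 ± 0.034 on the TMM scale but was at -0.35 and -0.18 with total counts. Its copy Gm28437 had 5.91 and 7.04 counts for each mt-Co3 count in the 1w controls and 9.45 and 9.66 in the 3w controls. In KO this ratio was 7.65 and 6.93 at 1w and 8.82 and 8.96 at 3w. The part of this shift between gene and copy in the change of mt-Co3 was not tested. mt-Co2 and mt-Atp8 passed neither in control nor in KO. mt-Atp6 had a log2 fold change of 1.84 ± 0.86 (edgeR adjusted p = 0.125) in control, which rests on control replicate 1 at 3w, the library with 76958 counts. Of the 7 copies on chromosome 1, 6 (all but Gm29216) also rose in control (median of the 7 0.79) and in KO (median 0.51). Among all genes tested 34.9% were called higher with age in control and 33.2% in KO. When the counts of the copies were added to the genes they mirror, 12 of 13 mRNAs rose in control and 12 of 13 in KO. In that fit 10390 of 14657 genes were called in either direction in control and 9960 in KO.

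With age the tRNAs did not share a direction. mt-Ti, mt-Tq and mt-Tm, which lie together between mt-Nd1 and mt-Nd2, rose in control by 3.02 ± 0.11, 2.23 ± 0.2 and 2.45 ± 0.08 on the log2 scale (edgeR adjusted p = 1.25e-24, 1.81e-15 and 1.34e-36), more than any mRNA called. In KO they rose by 2.04 ± 0.11, 0.84 ± 0.21 and 0.69 ± 0.075. mt-Tl1, on the other side of mt-Nd1, fell in control (-0.66 ± 0.063, edgeR adjusted p = 3.26e-06) and in KO (-1.27 ± 0.065, edgeR adjusted p = 1.52e-08). At the far end of the map mt-Tt fell (-1.49 ± 0.24 in control and -1.62 ± 0.25 in KO) while the adjacent mt-Tp, annotated on the other strand, rose (0.83 ± 0.033 and 1.19 ± 0.034). The strand setting is not known, so the strand from which the reads of either gene came cannot be told. mt-Te rose in control (0.73 ± 0.058, edgeR adjusted p = 6.4e-07) and was lower in KO (-0.20 ± 0.061, edgeR adjusted p = 0.0138), a call that was lost without either control library at 3w (-0.18 in both cases) or without KO replicate 2 at 3w (-0.10).

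In all, 5 tRNAs rose and 2 fell in control, and 4 rose and 8 fell in KO, of 17 tested. Among the 14665 genes tested 34.9% were called higher and 5274 genes lower in control, and 33.2% higher and 34.6% lower in KO. With total counts 5 rose and 8 fell in control and 3 rose and 8 fell in KO. On that scale 11563 of the 14665 genes were called in either direction in control and 11010 in KO. The medians on the TMM scale were -0.11 and -0.25, beside all-gene medians of -0.03 and -0.02.

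The make-up of the mitochondrial mRNA pool was described by each gene's share of it. mt-Co1 took 31.4 and 31.0% in the 1w controls, 32.3 and 32.4% in the 1w KO libraries, 32.0 and 31.4% in the 3w controls and 34.2 and 34.4% in the 3w KO libraries of the counts of the 13 mRNAs. KO held more of it than control at each age. Scaled to the pool, its difference in KO at 3w was 0.11 on the log2 scale (edgeR adjusted p = 5.7e-05), and at 1w it was 0.05 and did not pass. mt-Nd5 took 15.8 and 15.5% in the 1w controls, 13.8 and 13.8% in the 1w KO libraries, 14.8 and 14.8% in the 3w controls and 13.4 and 13.5% in the 3w KO libraries, less in KO at both ages (-0.18 at 1w and -0.14 at 3w, edgeR adjusted p = 1.76e-07 and 1.57e-05). mt-Nd6, its neighbour on the opposite strand, also took less in KO (-0.23 and -0.12, edgeR adjusted p = 1.65e-08 and 0.000579).

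With age mt-Nd1 held less of the pool. It took 13.5 and 13.8% in the 1w controls, 13.9 and 13.8% in the 1w KO libraries, 11.2 and 11.4% in the 3w controls and 11.2 and 11.2% in the 3w KO libraries. All 1w libraries lay above all 3w libraries, with a difference of -0.27 in control and -0.31 in KO (edgeR adjusted p = 1.9e-12 and 5.35e-14). mt-Nd4 took more at 3w (0.11 in control and 0.11 in KO, edgeR adjusted p = 0.0008 and 0.000594), and mt-Nd2 more at 3w in control (0.24, edgeR adjusted p = 2.31e-10). mt-Cytb took 17.1 and 17.4% in the 1w controls, 17.3 and 17.4% in the 1w KO libraries, 17.9 and 18.5% in the 3w controls and 17.7 and 17.5% in the 3w KO libraries, and its KO and control shares did not differ past the threshold.

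The nuclear-encoded subunits of the same complexes moved in the same direction in these comparisons, which share their libraries with those above. Of the 70 measured, 47 fell in KO at 1w (median -0.15) and 66 at 3w (median -0.44), and 66 rose with age in control (median 0.74) and 66 in KO (median 0.49). Among all genes tested 20.0% and 24.8% were called lower in KO at 1w and 3w, and 34.9% and 33.2% higher with age in control and in KO. With total counts 21 of the 70 fell and 5 rose in KO at 1w, 51 fell and 2 rose at 3w, 44 rose and 8 fell with age in control, and 28 rose and 14 fell in KO. The shares above are on the TMM scale. With total counts 6497, 8212, 11563 and 11010 of the 14665 genes were called in either direction in these 4 comparisons, in that order. The all-gene medians were then 0.12, 0.25, -0.60 and -0.45. With total counts the medians of the 4 complexes kept their sign in KO, at -0.15 to -0.21 at 3w, whereas with age in KO those of complex IV (-0.10) and complex V (0.00) did not keep it. For complex I the medians in KO were -0.13 at 1w and -0.39 at 3w for the 7 mitochondrial genes and -0.13 and -0.44 for the 35 nuclear genes measured. Named by size of change at 3w, Ndufa12 and Ndufa5 of complex I changed by -0.83 ± 0.044 and -0.82 ± 0.034, Uqcrb of complex III by -0.60 ± 0.031, Cox7c of complex IV by -0.61 ± 0.059 and Atp5k of complex V by -0.68 ± 0.062. With age in control, Cox7a1, the heart and muscle form of a complex IV subunit, rose by 1.94 ± 0.095 and Uqcrc1 of complex III by 1.18 ± 0.028.

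**Figure D5:**
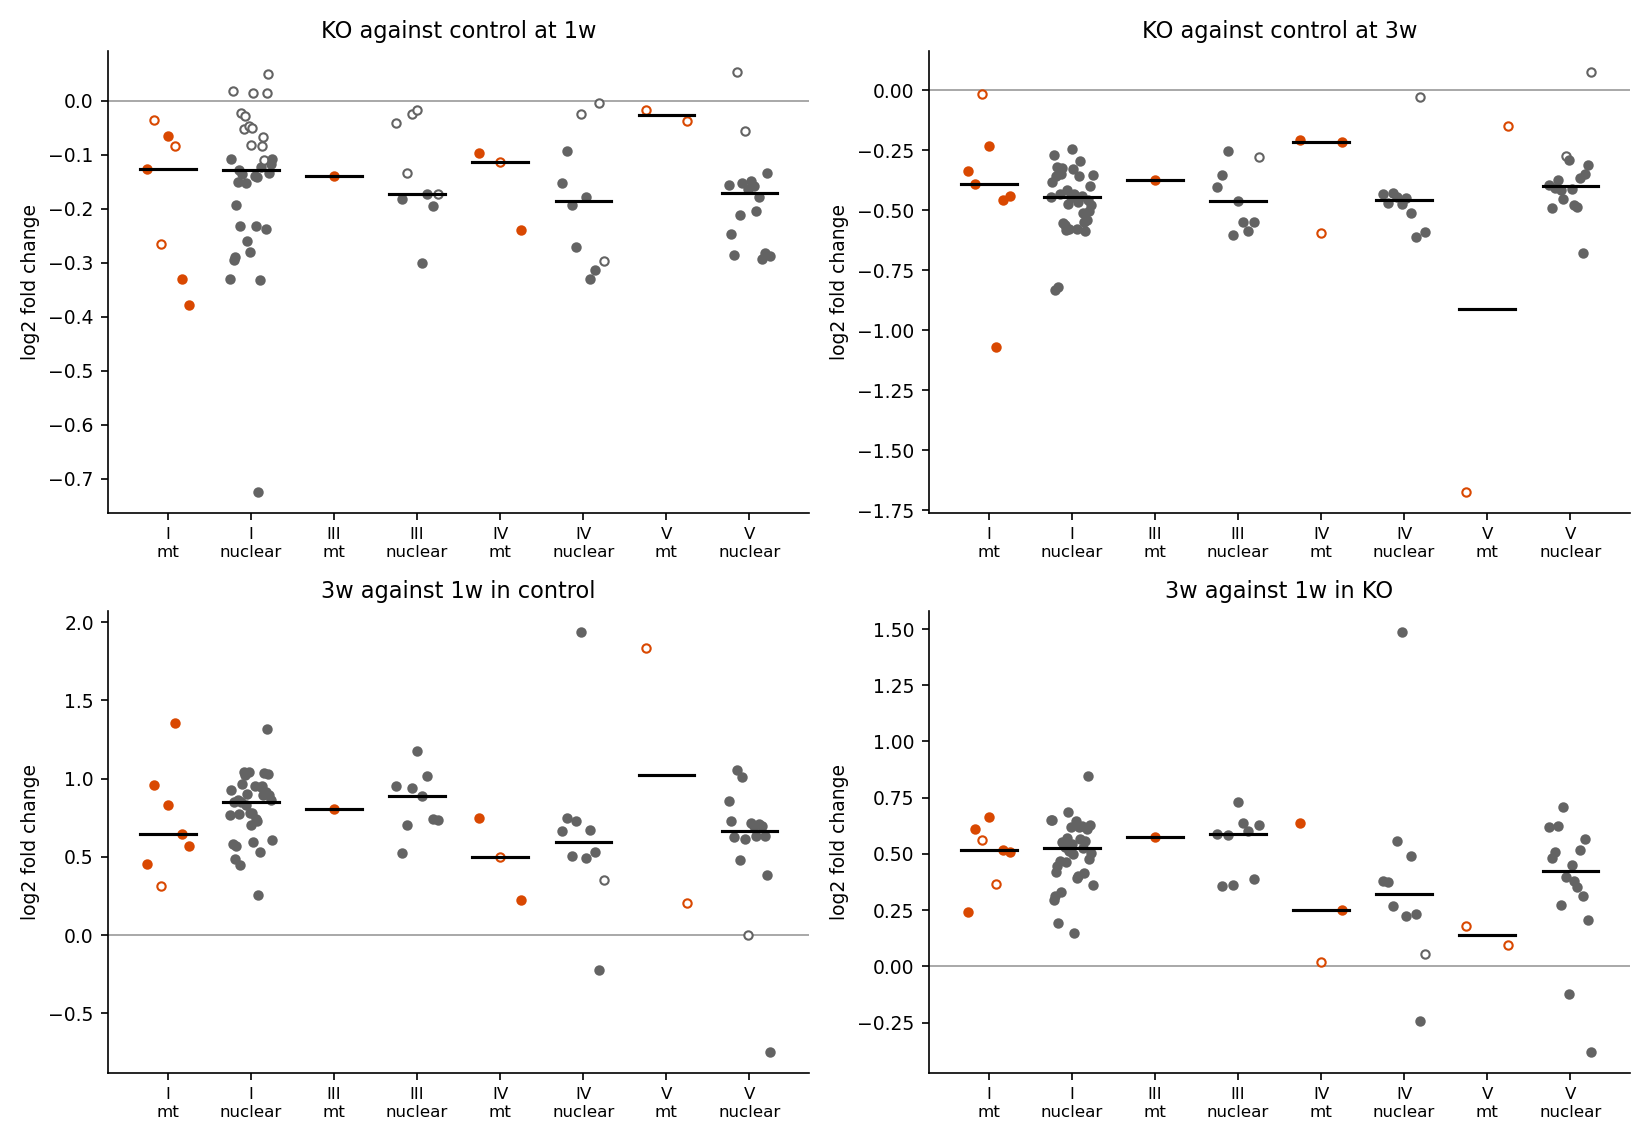
Log2 fold changes (TMM scale) of the subunits of complexes I, III, IV and V in 4 comparisons, with mitochondrially encoded genes in orange and nuclear-encoded ones in grey, filled where the adjusted p is under 0.05. Bars mark the median of each set. At 3w the medians in KO lie at -0.39 for the 7 mitochondrial and -0.44 for the 35 nuclear genes of complex I, and the mitochondrial set of complex V holds only mt-Atp8 and mt-Atp6, of which the latter rests on 1 library.

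Nuclear genes that make, cut, modify and translate these RNAs were taken as further lists, and the direction of their shifts depends on the scale. At both ages their TMM medians in KO were smaller in size than that of the 13 mRNAs. On the TMM scale their medians in KO at 3w lay between -0.25 and -0.09, but with total counts between 0.00 and 0.16. With age in control the TMM medians lay between 0.24 and 0.67 (0.65 for the 13 mRNAs), and with total counts between -0.34 and 0.10. The counts and values of these lists that follow are therefore relative to the typical gene. They stand beside 23.0% called higher and 20.0% lower among all genes tested in KO at 1w, and 24.4% and 24.8% at 3w. With age in control 34.9% were called higher and 5274 of the 14665 genes lower, and in KO 33.2% higher and 34.6% lower. These values are on the TMM scale. With total counts 6497 of the 14665 genes were called in either direction in KO at 1w and 8212 at 3w. With age 11563 were called on that scale in control and 11010 in KO. The genes named are among those with a mean of at least 10 CPM. Of the 9 measured genes of mitochondrial transcription, 2 rose and 2 fell in KO at 1w and 5 fell at 3w, against 2 higher and 0 lower at 1w and 2 higher and 2 lower at 3w with total counts. Polrmt, the mitochondrial RNA polymerase, changed by 0.16 ± 0.059 at 1w and Tefm, its elongation factor, by -0.23 ± 0.096. At 3w the largest falls called among genes of that level were those of Mterf4 (-0.41 ± 0.083), Mterf3 (-0.27 ± 0.071) and Tfam, which packages mitochondrial DNA and starts transcription (-0.16 ± 0.061, 0.09 with total counts). All 9 rose with age in control and 8 in KO on this scale, against 2 and 2 with total counts.

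Among 21 measured genes of RNA processing and stability, 3 rose and 5 fell in KO at 1w and 3 rose and 11 fell at 3w. With total counts 8 rose and 2 fell at 1w and 5 rose and 3 fell at 3w. Lrpprc, which with its partner Slirp stabilises mitochondrial mRNAs, fell at 1w (-0.45 ± 0.035, edgeR adjusted p = 2.42e-17), as did Hsd17b10, a subunit of the mitochondrial RNase P that cuts tRNAs at their 5′ ends (-0.28 ± 0.042). At 3w Ptcd1, Hsd17b10 and Ptcd3 had the largest changes called at that level (-0.60 ± 0.062, -0.42 ± 0.04 and -0.41 ± 0.039), although Ptcd1 had been higher in KO at 1w (0.28 ± 0.077). With age 17 of the 21 rose in control and 16 in KO, whereas with total counts 4 rose and 11 fell in control and 4 rose and 8 fell in KO. Ptcd1 rose in control by 1.56 ± 0.069.

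Of 15 genes that modify mitochondrial tRNA and rRNA, 2 rose and 3 fell in KO at 1w and 2 rose and 7 fell at 3w, against 7 and 2 at 1w and 4 and 2 at 3w with total counts. Trmt5, a tRNA methyltransferase, fell at both ages (-1.10 ± 0.067 and -0.90 ± 0.07), as did Mto1 (-0.39 ± 0.083 and -0.37 ± 0.074), which modifies the wobble base of a group of mitochondrial tRNAs. With age 8 rose and 1 fell in control, against 4 and 8 with total counts. Mrm3, an rRNA methyltransferase, rose in control by 1.27 ± 0.083. Of 18 genes of mitochondrial DNA maintenance, 2 rose and 5 fell in KO at 1w and 3 rose and 8 fell at 3w, whereas with total counts 4 rose and 2 fell at 1w and 9 rose and 3 fell at 3w. Mpv17, an inner membrane protein needed to keep mitochondrial DNA, fell at both ages (-0.43 ± 0.082 and -0.38 ± 0.075). With age in control Slc25a33, a pyrimidine nucleotide carrier, and Twnk, the mitochondrial DNA helicase, rose by 2.37 ± 0.085 and 1.10 ± 0.064. Of 14 genes of mitochondrial translation, 2 rose and 2 fell in KO at 1w and 1 rose and 11 fell at 3w, against 5 and 1 at 1w and 4 and 2 at 3w with total counts. Tufm, the elongation factor that brings tRNAs to the ribosome, changed by -0.41 ± 0.036 at 3w. In control 13 of the 14 rose with age (6 with total counts), Tufm by 1.22 ± 0.038.

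Markers of other cells also differed between the groups in which the mitochondrial genes differed. Their counts, here and in the next paragraph, stand beside the shares among all genes tested on the TMM scale. In KO these were 23.0% called higher and 20.0% lower at 1w, and 24.4% and 24.8% at 3w. With total counts 6497 of the 14665 genes were called in either direction at 1w and 8212 at 3w. Of 9 measured fibroblast markers, 9 were higher in KO at 1w and 9 at 3w, on the TMM scale and with total counts. Their summed level was 1304 to 1309 CPM in control and 2369 to 2394 CPM in KO at 1w, and 388 to 392 and 819 to 828 CPM at 3w, with Tcf21 listed at 0 in all libraries. Of 10 macrophage and myeloid markers, 10 were higher in KO at 1w (47.4 to 48.7 against 151 to 158 CPM) and 9 at 3w (84.9 to 86.2 against 130.1 to 134 CPM). Of the 8 smooth muscle and pericyte markers, 4 were higher and 3 lower in KO at 1w and 8 higher at 3w, and they summed to 1761 to 1832 against 2292 to 2312 CPM at 1w and 1117 to 1161 against 2022 to 2029 CPM at 3w, with the lower values in control. Of the 8 endothelial markers, 8 were higher in KO at 1w, and 6 higher and 1 lower at 3w, with sums of 756 to 769 against 879.7 to 888 CPM and 296 to 307 against 353 to 363 CPM. Of 4 measured erythroid markers, 3 were lower in KO at 1w (54.8 to 77.1 CPM in control against 25.9 to 27.4 CPM) and 2 higher at 3w (121 to 132 against 156 to 160.2 CPM).

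Atrial muscle markers were unlike these. All 6 were higher in KO at 1w (median log2 fold change 3.43), with sums of 60.3 to 62.2 against 599 to 605 CPM. At 3w 2 were higher and 4 lower (median -2.32), although the sums were 167 to 172 against 591 to 605 CPM. For the KO effect at 3w less that at 1w, 4 of the 6 were called lower and 0 higher (median -5.75). Among all genes tested 17.9% were called lower for this difference. It runs along the split by Y-linked transcripts, and the 2 cannot be told apart. The cardiomyocyte markers had a median log2 fold change of -0.24 in KO at 1w and -0.32 at 3w, and of 0.87 with age in control, and with total counts -0.14, -0.07 and 0.29. With age the fibroblast sum was lower and the cardiomyocyte sum higher in both KO states. The part of these shifts in the mitochondrial differences was not tested.

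The difference between the KO effects at 3w and at 1w was called in 7 of the 13 mRNAs, all towards a lower value at 3w (median -0.17), against 35.6% called and 17.9% lower among all genes tested. With all libraries, none was called higher by edgeR with TMM factors or by DESeq2, and none at an unadjusted p under 0.05 in that edgeR fit. With total counts 2 were called lower and 2 higher, beside 5408 of the 14665 genes tested called in either direction. This difference runs along the split by Y-linked transcripts exactly, and the 2 cannot be told apart.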

How the data were processed

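The members, gene lists and tests were chosen with earlier results of these data known. Gene-level counts were deposited by the authors as 1 table, unnormalised. The submitters' processing notes name FastQC, MultiQC, HISAT2, featureCounts, DESeq2 and the mm10 build. The library was an mRNA library made with SMART cDNA synthesis and Nextera XT, per the labels' protocols. Not given in the sources used here: software versions, annotation, strand setting and the treatment of reads that fit several places, the last of which affects genes with nuclear copies. Libraries were grouped by their titles into 4 groups of 2.

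Counts were fitted in edgeR 4.0.16 (R 4.3.3) with 1 robust quasi-likelihood model of the 4 groups (4 residual degrees of freedom), after filterByExpr (minimum count 10, minimum total 15), which kept 14665 of 54752 genes, and TMM scaling (factors 0.759 to 1.23). Benjamini-Hochberg adjustment ran over every gene that passed this filter. CPM use TMM-scaled library sizes. The code was checked on counts simulated with the spread of the fitted model itself. Such a check cannot show that this spread is right for these data. Alternatives were DESeq2 1.42.0, other scalings and filters, added copy counts, a replicate block and leaving out each library. Copies were found with BLAST 2.17.0 against GENCODE M21 transcripts. All 13 mRNAs, both rRNAs and the tRNAs with a mean of at least 10 CPM were named with every value, and the other tRNAs by range and count. Of each nuclear list, at most 3 called genes of at least 10 CPM with the largest change were named. The rows of the table that could be given a symbol numbered 54723.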

Additional observations from a re-analysis of the deposited data

Results flagged for a closer look

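The KO effect at 3w differed from that at 1w, by a test of the difference itself in edgeR (adjusted p under 0.05), in 16 of the 32 mitochondrial genes tested. Among all 14665 genes tested 35.6% were called for it, 17.6% higher and 17.9% lower. This difference cannot be told apart from the split by Y-linked transcripts. Among the rRNAs it was 0.39 on the log2 scale for mt-Rnr1 and -0.082 for mt-Rnr2, the latter 0.07 with total counts. Among the complex I mRNAs it was -0.21 for mt-Nd1, -0.35 for mt-Nd2, -0.99 for mt-Nd4l, -0.17 for mt-Nd4 and -0.13 for mt-Nd5, the last 0.02 with total counts. For mt-Cytb it was -0.23, and for mt-Co1 it was -0.11 and 0.04 with total counts. Among the tRNAs it was -0.61 for mt-Tl1, -0.98 for mt-Ti, -1.39 for mt-Tq, -1.76 for mt-Tm, -1.17 for mt-Tw, -0.93 for mt-Te and 0.36 for mt-Tp. A positive value means that the KO fold change was higher at 3w than at 1w, as for mt-Rnr1 and mt-Tp, whose fall in KO was smaller at 3w.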

How the results depend on the processing

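A tally covered 62 reported changes of the 21 mitochondrial genes with a mean of at least 10 CPM, in comparisons of 2 single groups. Averaged comparisons, differences of KO effects, the lower tRNAs and nuclear genes were not in it. Of the 62, 62 kept their direction and call with TMM on nuclear genes only and 62 with RLE size factors. With DESeq2 61 did, and under a minimum mean of 1 CPM 62. The scale was what turned directions. With total counts, 3 mRNAs were called lower and 1 higher in KO at 1w (median -0.014) and the median was -0.12 at 3w, -0.057 averaged over both ages, 0.068 with age in control, 0.083 in KO, 0.080 averaged over control and KO and -0.017 for the difference of the KO effects (2 called lower and 2 higher). Total counts reversed mt-Nd2 (0.064), mt-Co1 (0.0027) and mt-Nd4 (0.034) in KO at 1w, mt-Co1 (0.045), mt-Co3 (0.036) and mt-Nd4 (0.018) in KO at 3w, mt-Nd1 (-0.12), mt-Co3 (-0.35) and mt-Nd6 (-0.0084) with age in control, and mt-Nd1 (-0.19) and mt-Co3 (-0.18) with age in KO.

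Scaled to the 13 mRNAs, which by construction removes their shared change, 2 mRNAs were called lower and 2 higher in KO at 1w (median 0.034), 4 lower and 3 higher at 3w (-0.051), 2 lower and 2 higher averaged over both ages (0.0026), 4 higher and 5 lower with age in control (-0.079), 2 higher and 3 lower in KO (-0.044), 4 higher and 5 lower averaged over control and KO (-0.057), and 1 lower and 2 higher for the difference of the KO effects (0.0038). It reversed mt-Nd1 (0.022), mt-Nd2 (0.11), mt-Co1 (0.052), mt-Nd4 (0.084) and mt-Cytb (0.0085) in KO at 1w, mt-Co1 (0.11), mt-Co3 (0.11) and mt-Nd4 (0.087) in KO at 3w, mt-Nd1 (-0.27), mt-Co3 (-0.50), mt-Nd5 (-0.079) and mt-Nd6 (-0.16) with age in control, and mt-Nd1 (-0.31), mt-Co3 (-0.30), mt-Nd5 (-0.034) and mt-Nd6 (-0.044) with age in KO.

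The median with age in control was 0.62 under a minimum mean of 1 CPM and 0.72 with copy counts added, which gave 0.62 averaged over control and KO and -0.21 for the difference of the KO effects. With no filter the median with age in KO was 0.47 and that of the difference -0.21. The cause was not tested.

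Leaving out each library in turn, the mRNA medians ran from -0.16 to -0.089 in KO at 1w and -0.39 to -0.31 at 3w. Averaged over both ages they ran from -0.27 to -0.23. With age they ran from 0.62 to 0.69 in control, 0.31 to 0.53 in KO and 0.57 to 0.61 averaged over control and KO. For the difference of the KO effects they ran from -0.21 to -0.15. A group left with 1 library was assumed to vary like the others. The mt-Atp6 change in KO at 3w ran from -2.46 without control replicate 2 at 3w to 0.045 without control replicate 1 at 3w, and its change with age in control was called by DESeq2 (1.85, adjusted p = 0.0225). DESeq2 called 3766 genes in KO at 1w and 3141 for the difference of the KO effects, against 6305 and 5215 in edgeR.

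Within an age, same-numbered control and KO libraries share their stated injection day. Same-numbered libraries did not deviate together (6 correlations from -0.022 to 0.008), so replicate numbers were not taken as pairs. With the replicate block the mRNA median was -0.11 in KO at 1w, -0.37 at 3w, -0.23 averaged over both ages, 0.65 with age in control, 0.51 in KO, 0.58 averaged over control and KO and -0.17 for the difference of the KO effects, for which it called 6 mRNAs lower, without mt-Nd4l (adjusted p = 0.0916). There mt-Rnr2 was not called either (0.0918), nor was mt-Ts1 with age averaged over control and KO (0.0603). The block changed no other call of a mitochondrial gene. Each library held 470853 counts or more of each abundant mRNA, and the 5 tRNAs with at most 10 counts were not tested.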
